A study of Mus musculus with 4 samples.

Results

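The carbonic anhydrase genes Car1, Car2, Car3, Car4, Car5b, Car8, Car12 and Car13 were picked by symbol from the 19564 gene symbols measured, and all 8 were found. Carbonic anhydrases are zinc enzymes that interconvert carbon dioxide and water with bicarbonate and a proton. In red cells this reaction feeds the exchange of bicarbonate for chloride through band 3, the anion exchanger encoded by Slc4a1, and so lets blood carry carbon dioxide as bicarbonate. The isoenzymes differ in where they sit in the cell: Car1, Car2, Car3 and Car13 encode cytosolic enzymes, Car5b a mitochondrial one, Car4 an enzyme anchored to the outer membrane surface and Car12 a transmembrane one, while Car8 encodes a related protein without enzyme activity. Adult red cells hold carbonic anhydrase I and II, the products of Car1 and Car2, as major cytosolic proteins.

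The genes were measured in 4 populations of erythroid cells sorted from fetal liver of E14.5 (embryonic day) mouse embryos, by the erythroid antigen TER119 and the transferrin receptor CD71. R2 holds proerythroblasts and early basophilic erythroblasts, R3 early and late basophilic erythroblasts, R4 mostly polychromatophilic and orthochromatophilic erythroblasts, and R5 late orthochromatophilic erythroblasts with reticulocytes. The cells were untreated and not cultured, and the labels give neither their strain and genotype nor how many livers went into a sort. Each population gave 1 library of polyadenylated RNA, so differences below have no check by replicates and carry no p-value. Values are RPKM, reads scaled to gene length and library size, which allows levels of different genes to be compared, and a ratio is between RPKM values unless it is called a log2 ratio, which is of RPKM + 1. Counts of genes at least 2-fold higher or lower are taken on log2 ratios, so a gene of low level can pass 2-fold in RPKM and not be counted. The 95% intervals are exact intervals on estimated reads and cover counting error only.

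The labels were checked against marker genes. All 9 erythroid markers were measured in every population, with a summed level of 11630 RPKM in R2 and 356820 in R5, most of it globin. The 8 globin genes took 5.52% of all RPKM in R2, then 59.4%, 80.4% and 81.9% in R3, R4 and R5, which lowers the RPKM of every other gene. Over all 9942 genes that reached 1 RPKM in any population, the median log2 ratio was -1.09 from R2 to R3, -0.77 from R3 to R4, 0.27 from R4 to R5 and -1.65 from R2 to R5. Markers of other cells were present in each library, and no granulocyte or hepatocyte marker was at 0. The 10 granulocyte markers summed to 6129 RPKM in R2, then 431, 238 and 472 in R3, R4 and R5, and the 9 hepatocyte markers to 232, 566, 193 and 411. Macrophage markers summed to at most 99.1 RPKM and megakaryocyte markers to at most 69.8. Of lymphoid markers, which summed to 28.9 RPKM in R2 and at most 2.75 later, the T cell gene Cd3e was listed at 0 throughout. In a sorted population, more cells of a type and more RNA per cell cannot be told apart.

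Car2 carried nearly all of the carbonic anhydrase RNA in every population. Its level was 365 RPKM in R2, then 1387, 1202 and 852 in R3, R4 and R5, where R2 was the low population and R3 the high one. Among all 19564 symbols it ranked 116th in R2, 19th in R3, 13th in R4 and 23rd in R5. Of the summed RPKM of the 16 Car genes in the files, Car2 made up 95.4% in R2, then 98.8%, 99.4% and 99.1% in R3, R4 and R5. Car1 came next with 2.52%, 0.742%, 0.422% and 0.546%, and the other 14 genes together held 2.08%, 0.414%, 0.192% and 0.364%. Of all RPKM outside the globin genes, Car2 took 0.0967% in R2, then 0.630%, 0.871% and 0.539% in R3, R4 and R5.

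Car1, the gene of the second cytosolic isoenzyme of adult red cells, was at 9.61 RPKM in R2, then 10.4, 5.10 and 4.70 in R3, R4 and R5. These values rest on about 263, 319, 167 and 116 reads. R3 stood at 1.08 times R2 (0.92 to 1.28) and R5 at 0.922 of R4 (0.719 to 1.17), so neither pair differed beyond counting error. R4 stood at 0.490 of R3 (0.403 to 0.592), which, as deposited, left R2 and R3 as the higher populations and R4 and R5 as the lower ones.

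Car3 and Car13 were about 1 RPKM or lower in most populations. Car3, best known from muscle, fat and liver, was at 0.99 RPKM in R2, then 2.20, 0.97 and 0.76 in R3, R4 and R5, from about 38, 95, 45 and 26 reads. R3 was the high population, at 2.22 times R2 (1.52 to 3.35), and the summed hepatocyte markers were also highest in R3; their part in the Car3 value was not tested. Car13, a widely expressed cytosolic isoenzyme, was at 1.31 RPKM in R2, then 0.66, 0.20 and 0.14 in R3, R4 and R5. Its R5 value rests on about 7 reads, and R5 stood at 0.107 of R2 (0.0436 to 0.244). Granulocyte markers were highest in R2 as well, as were Car12 and Car9 below, and the part of other cells in these values was not tested.

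The other 4 members stayed under 1 RPKM in every population. Car12 was at 0.33 RPKM in R2, listed at 0 in R3, and at 0.02 in R4 and 0.03 in R5. The R2 value rests on about 28 reads, against about 2 each in R4 and R5. Car8 was at 0.07, 0.04, 0.01 and 0.05 RPKM, from at most about 6 reads, so no order among its values was detectable at this depth. Car5b was at 0.03 RPKM in R2, from about 2 reads, and listed at 0 in the other populations. Car4 was listed at 0 in all 4. If every base of its transcript could be counted, 3 reads, the 1-sided limit that a count of 0 allows, would be 0.104 RPKM in R2, then 0.0932, 0.0871 and 0.115 in R3, R4 and R5. The 2-sided 95% intervals used elsewhere reach 0.128, 0.115, 0.107 and 0.142 RPKM. The R3 library also lists Gapdh, which every cell uses, at 0. Gapdh values step in whole reads, as if very few of its bases could be counted, so its 0 is not like that of a fully countable gene. How many bases of Car4 could be counted is not known, and a value of 0 is not taken as absence.

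**Figure D1:**
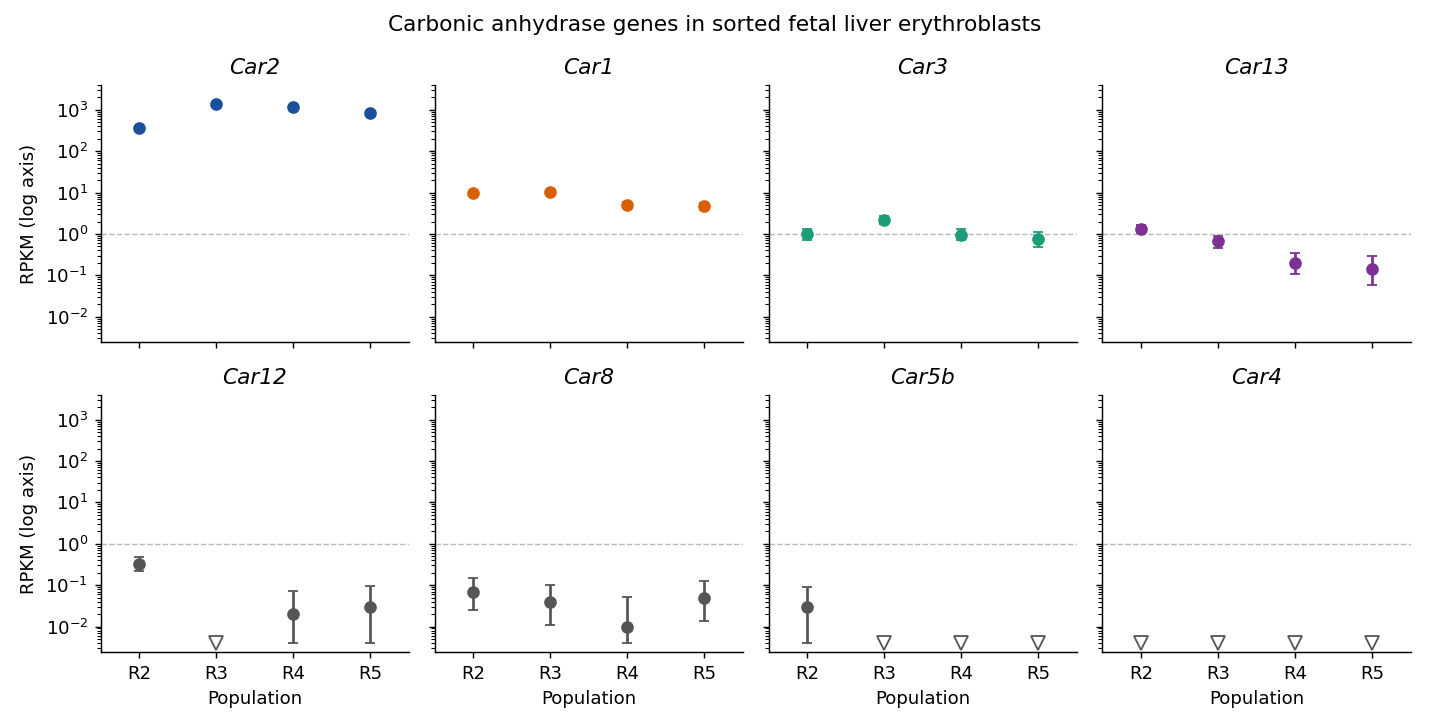
Level of each of the 8 carbonic anhydrase genes (RPKM, log axis) in populations R2, R3, R4 and R5, 1 library each. Points are the deposited values, bars 95% counting intervals on estimated reads (cut at the lower edge of the axis), open triangles values listed at 0 and the dashed line 1 RPKM; Car2 sits between 365 and 1387 RPKM, and no other gene passes 10.4.

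Car1, Car2, Car3 and Car13 lie side by side, in the order Car13, Car1, Car3, Car2, on mouse chromosome 3 in the RefSeq annotation of GRCm38.p6. Their coding sequences are alike in part. Aligned base by base in GENCODE M21, Car2 was identical to Car1 at 64.2% of aligned positions, to Car3 at 64.8% and to Car13 at 62.5%, and Car1 to Car3 at 67.3%. The longest run of bases shared exactly by 2 transcripts was 15 for Car2 and Car1, 14 for Car2 and Car3, 30 for Car2 and Car13 and 20 for Car1 and Car3. Neither the read length nor the handling of reads with several matches is stated in the labels.

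The order of the 4 clustered genes within a library does not depend on how libraries are scaled. Car2 stood at 37.9 times Car1 in R2 (33.6 to 43.1), 133 times in R3 (119 to 149), 236 times in R4 (202 to 276) and 181 times in R5 (152 to 220). The R2 interval lay below the others, and the R3 interval below those of R4 and R5, which overlapped. Against Car3 the ratio was 368 in R2, then 630, 1239 and 1122 in R3, R4 and R5, and against Car13 it was 278, 2101, 6008 and 6089. Car2 was thus the higher of each pair by a factor of at least 37.9 in all 4 libraries. Car3 and Car13 changed places: in R2 Car13 was the higher of these, at 1.31 against 0.99 RPKM, with overlapping counting intervals, and in R3, R4 and R5 Car3 was.

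**Figure D2:**
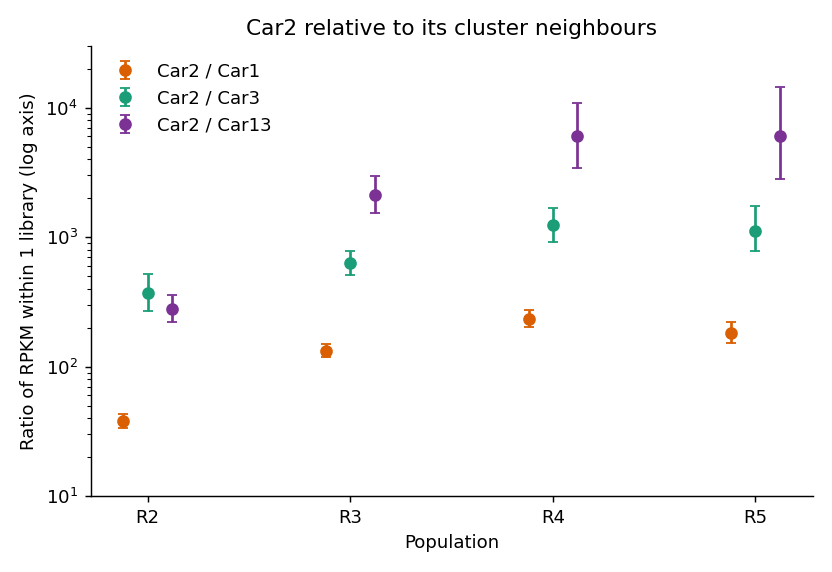
Ratio of the Car2 level to that of Car1, Car3 and Car13 within 1 library (log axis), for each population. Points are ratios of deposited RPKM and bars 95% counting intervals; the ratio to Car1 goes from 37.9 in R2 to 236 in R4, and the ratio to Car13 from 278 to 6089 in R5.

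R3 against R2 sets basophilic erythroblasts against an earlier population with proerythroblasts, though both hold early basophilic erythroblasts. Car2 stood at 3.80 times its R2 level in R3 (3.74 to 3.87), a log2 ratio of 1.92 that was higher than that of 98.8% of all genes tested. On log2 ratios it was the 1 member of the 4 past the filter counted as at least 2-fold higher, and 3.81% of all genes were; Car3, at 2.22 times in RPKM, was counted too with 0.1 RPKM added in place of 1, against 4.82% of all genes. None of the 4 was at least 2-fold lower, against 55.1% of all genes. The log2 ratios of Car1, Car3 and Car13 were 0.10, 0.69 and -0.48. The filter kept Car3 only through R3 and Car13 only through R2, so a difference was built into their selection, and counts over the 4 describe these genes and no more.

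In R4 against R3 Car2 stood at 0.866 of its R3 level (0.857 to 0.876), a log2 ratio of -0.21 in a comparison where the median gene was at -0.77. Car1, Car3 and Car13 had log2 ratios of -0.90, -0.70 and -0.47. On these log2 ratios 0 of the 4 were at least 2-fold higher, against 0.493% of all genes, and 0 were at least 2-fold lower, against 32.1%. In RPKM alone Car1, Car3 and Car13 stood at 0.490, 0.441 and 0.303 of R3, and with 0.1 RPKM added in place of 1 all 3 were counted as lower, against 59.1% of all genes. The filter kept Car3 only through R3, so a lower value of Car3 in R4 was built into its selection. In R5 against R4 Car2 stood at 0.709 of its R4 level (0.700 to 0.719), a log2 ratio of -0.49, and 4.46% of genes had a lower one. Car1, Car3 and Car13 were at -0.10, -0.16 and -0.07. Here too 0 of the 4 passed 2-fold in either direction, against 3.96% of all genes that were higher and 0.604% that were lower.

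R5 against R2 spans the whole course. Car2 stood at 2.34 times its R2 level in R5 (2.29 to 2.38), a log2 ratio of 1.22, and was the 1 member at least 2-fold higher, against 2.74% of all genes. Car13 was the 1 member counted as at least 2-fold lower, with a log2 ratio of -1.02, against 76.9% of all genes. The filter kept Car13 only through R2, so a lower value in R5 was built into its selection. Car1 was at -0.90 and Car3 at -0.18. Adding 1 RPKM understates the change of low genes: in RPKM Car1 stood at 0.489 of R2 (0.389 to 0.610), and with 0.1 added Car1 and Car13 were both counted as lower, against 84% of all genes. The median of the 4, which includes Car13 and describes these genes only, was -0.54, against -1.65 over all genes. With R2 not used, the log2 ratio of Car2 in R5 against R3 was -0.70, and the higher count was then 0, against 0.664% of all genes. Car1, at -1.001, was then the 1 member counted as at least 2-fold lower, against 13.1%. In RPKM alone Car1, Car3 and Car13 stood at 0.451, 0.345 and 0.212 of R3. For Car3, which the filter kept only through R3, a lower value in R5 was built into its selection.

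**Figure D3:**
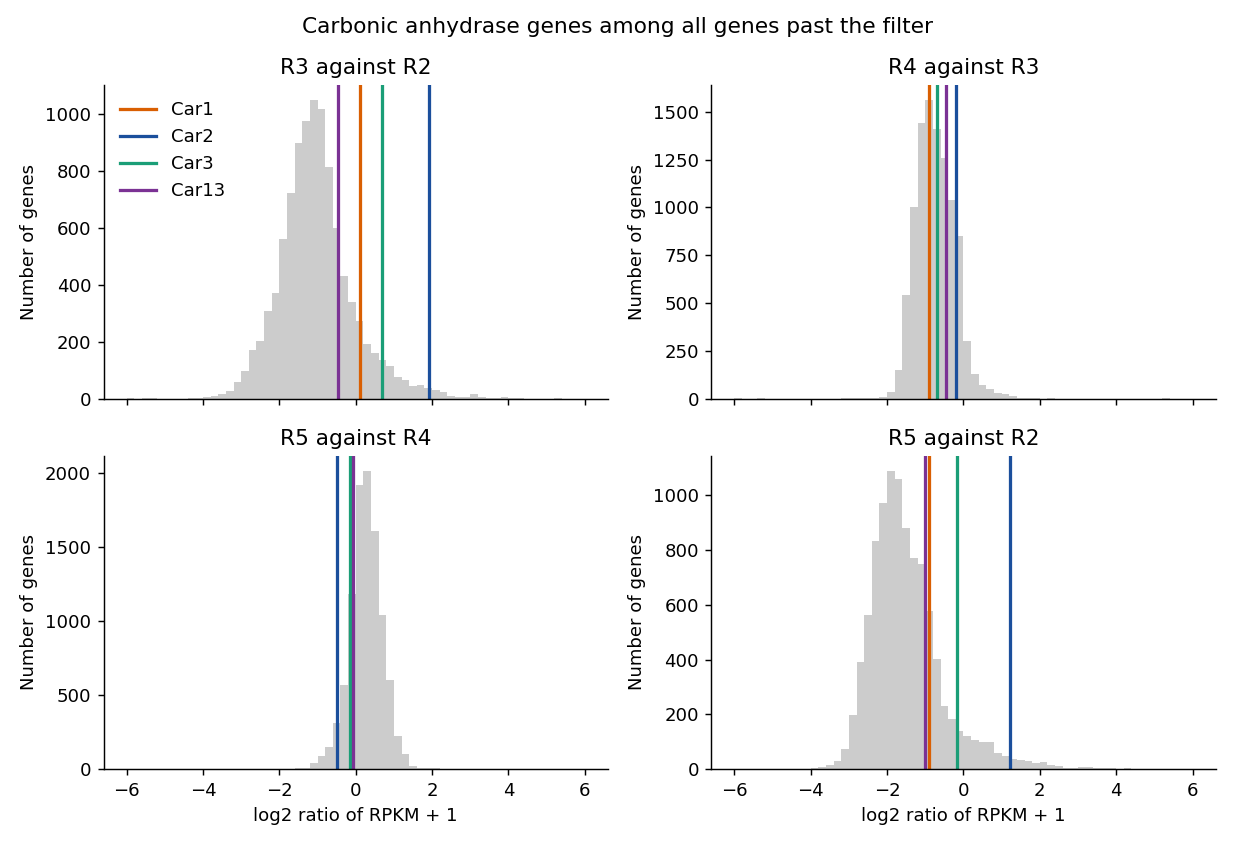
Number of genes by log2 ratio of RPKM + 1 for the 9942 genes that reached 1 RPKM in any population, 1 panel for each comparison (values beyond 6 are drawn in the end bins). Coloured lines mark Car1, Car2, Car3 and Car13; Car2 lies right of most genes in R3 against R2, at 1.92, and left of most in R5 against R4, at -0.49.

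The place of the Car2 maximum depended on the scaling. With each library divided by the median of its gene ratios, Car2 was at 168 in R2, then 1176, 2165 and 1190 in R3, R4 and R5. With globins removed and the rest rescaled to a common sum it was at 216, 1407, 1944 and 1204. R2 was the lowest population under all 3 scalings, whereas the highest was R3 as deposited and R4 under both rescalings. From R3 to R4 the log2 ratio was -0.21 as deposited, and it turned to 0.88 under median scaling and to 0.47 once globins were left out. In R5 against R4 Car2 was lower under each, at -0.49, -0.86 and -0.69. Car1 was at 4.42, 8.83, 9.19 and 6.56 with median scaling, so that its log2 ratio in R5 against R2 turned from -0.90 to 0.48, and to 0.19 with globins removed. The same ratio of Car3 turned from -0.18 to 0.50 and 0.39, while that of Car13 stayed below 0, at -0.42 and -0.57.

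**Figure D4:**
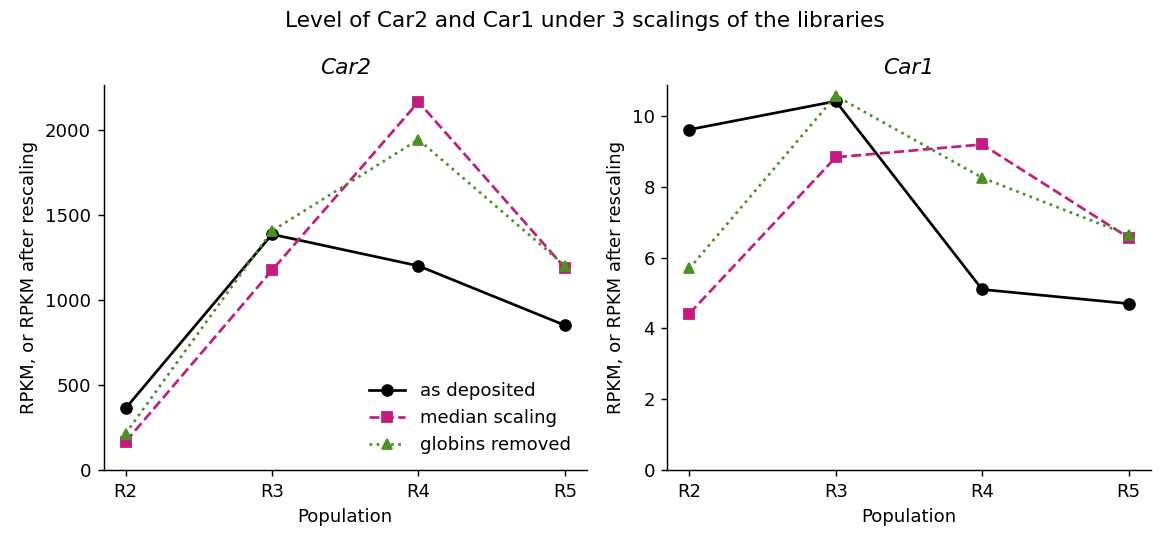
Level of Car2 (left) and Car1 (right) by population under 3 scalings (as deposited, median scaling, globins removed), on linear axes that start at 0. Car2 is lowest in R2 under all 3 and peaks in R3 as deposited, at 1387, but in R4 after either rescaling, at 2165 and 1944.

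The 8 other Car genes in the files were low. Car15, a membrane-anchored isoenzyme, was at 2.61 RPKM in R2, then 1.67, 0.58 and 1.0 in R3, R4 and R5. Car9, a transmembrane isoenzyme known as a target of the hypoxia response, was at 2.25, 0.28, 0.19 and 0.47, so that R2 stood apart from the later populations. The remaining Car5a, Car6, Car7, Car10, Car11 and Car14 did not pass 0.36 RPKM in any population. Car5a, a mitochondrial isoenzyme of liver, was listed at 0 except in R3, at 0.19 RPKM from about 6 reads. Ptprg and Ptprz1, receptor phosphatases with a carbonic anhydrase-like domain, did not pass 0.05.

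Transporters that move the substrates and products of these enzymes were taken from written lists. Counts are as deposited, to be read against the 2.74% of all genes at least 2-fold higher and the 76.9% lower in R5 against R2. Counts under rescaling are to be read against 9.42% higher and 13.7% lower under median scaling, and against 7.35% and 29.8% once globins are left out. Of 15 bicarbonate transport genes in the files, 4 passed the filter, and 1 was at least 2-fold above R2 in R5 and 2 were lower, with a median log2 ratio of -1.01. Under median scaling 1 was higher and 0 lower, with a median of -0.31, and without globins 1 and 0, with -0.48. As deposited, the higher one was Slc4a1, at 164 RPKM in R2, then 2342, 2667 and 1734 in R3, R4 and R5. Car2 stood at 2.23 times Slc4a1 in R2 and at 0.592, 0.451 and 0.492 of it in R3, R4 and R5, so the order of the enzyme and the exchanger turned between R2 and R3. Slc4a2, a widely expressed anion exchanger, was at 11.8, 4.39, 1.61 and 2.37 RPKM.

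Of 10 genes of gas and water channels, 6 passed, with 1 at least 2-fold above R2 in R5 and 1 lower. Their median log2 ratio of -0.27 turned to 0.94 with median scaling and 0.77 with globins removed. Under median scaling 3 were higher and 0 lower, and without globins 2 and 0. As deposited, the higher one was Rhd, an Rh blood group gene, at 130, 524, 456 and 422 RPKM. Its partner Rhag, whose product can pass ammonia and carbon dioxide, was at 49.4, 101, 82.7 and 52.2, and the water channel gene Aqp1 was the lower one, at 110, 76.1, 25.5 and 24.9. Aqp3, a channel for water and glycerol, was at 17.1, 18.5, 8.98 and 10.8. Of 12 genes of the band 3 membrane complex, all passed, 6 were at least 2-fold above R2 in R5 and 0 lower, with a median log2 ratio of 0.99. With median scaling 12 were higher, and 11 with globins removed. In R3 against R2, 9 of these 12 were at least 2-fold higher, as Car2 was, against 3.81% of all genes. They included Epb4.2, which encodes protein 4.2, at 15.9 and 141 RPKM. The skeleton and surface genes Ank1, Epb4.1, Gypc and Icam4 were also at least 2-fold higher there, at 88.3 and 230, 57.7 and 181, 39.2 and 129, and 79.0 and 248 RPKM, while Add1, Add2 and Cd47, at 82.3 and 143, 108 and 149, and 52.5 and 76.0, were within 2-fold.

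**Figure D5:**
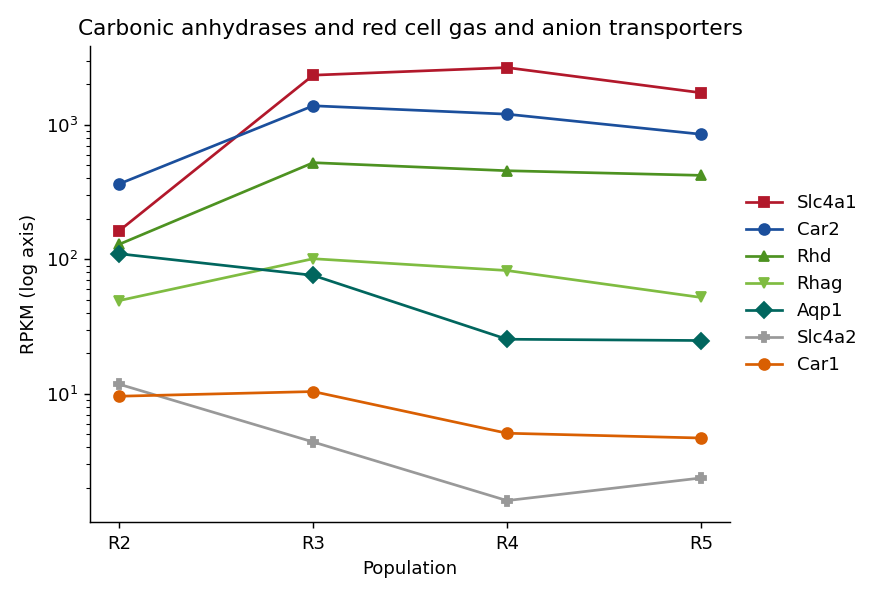
Level (RPKM, log axis) of Car2 and Car1 beside Slc4a1, Slc4a2, Rhd, Rhag and Aqp1 in each population, 1 library each. Car2 lies above Slc4a1 in R2, at 365 against 164, and below it in R3, R4 and R5.

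Of 13 genes of proton and lactate transport, 6 passed, and 0 were at least 2-fold above R2 in R5 and 4 lower, but under median scaling 2 were higher and 1 lower, and without globins 1 and 2. Slc16a1, a lactate and proton cotransporter, was at 32.1, 46.7, 46.0 and 29.7 RPKM, and its relative Slc16a3 at 75.2, 22.8, 8.31 and 23.3. Slc9a8 was at 11.2, 9.88, 12.01 and 9.60, and the proton channel gene Hvcn1 at 10.7, 1.36, 0.50 and 0.91. Zinc is the metal of the active site. Of 22 zinc handling genes, 17 passed, with 2 at least 2-fold above R2 in R5 and 12 lower, and a median of -1.73. Under median scaling 3 were higher and 2 lower, and without globins 2 and 7. As deposited, the higher pair was the metallothionein genes Mt1, at 1190, 1872, 1045 and 2446 RPKM, and Mt2, at 629, 1307, 665 and 1267. Slc30a10, a metal exporter gene, was at 12.3, 28.2, 13.6 and 7.84 RPKM, and Slc39a8, a metal importer gene, at 31.5, 34.4, 10.1 and 9.4. Slc30a9 was at 15.6, 20.2, 15.6 and 13.1. Slc30a5, Slc39a1, Slc39a3, Slc39a7 and Slc39a11 were highest in R2 as deposited, at 17.9, 12.9, 10.5, 72.1 and 13.1 RPKM. These 5 were at least 2-fold lower in R5 as deposited, as were 76.9% of all genes.

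Genes beside the cluster were lower than Car2 in every population. Of the 8 nearest protein-coding neighbours in the annotation, 6 were in the files and 3 passed the filter. The gene next to Car13, named 1810022K09Rik in the files, was at 94.5 RPKM in R2, then 37.4, 12.4 and 11.3 in R3, R4 and R5. E2f5 stayed at or under 3.05 RPKM and Lrrcc1 at or under 1.77.

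Patterns were compared over the 4 populations by the root mean square difference of log2 values centred on each gene's mean, among 5597 genes that reached 10 RPKM. Nearest to Car2 were Rnf123, which encodes a ubiquitin ligase subunit, at 0.037, then 1110038D17Rik at 0.044, the amino acid transporter gene Slc43a1 at 0.063, the receptor gene Gpr146 at 0.070 and Brpf3 at 0.081. Rnf123 was at 48.6, 198, 173 and 121 RPKM, with the same order of populations as Car2. With median scaling Rnf123, Slc43a1, 1110038D17Rik and Brpf3 were again among the 5 nearest. Among the 5 genes nearest to Car1 were D2Ertd750e at 0.027, Zfp91-Cntf at 0.032, the cell cycle factor gene E2f4 at 0.034 and the iron transporter gene Slc11a2 at 0.041. None of these named genes remained among the 5 nearest with median scaling. With 4 points per gene, many genes have a similar pattern by these measures.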

How the data were processed

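The members and lists were chosen with earlier results of these data known. Per the labels' protocols, polyadenylated RNA of sorted cells was sequenced on an Illumina (Solexa) instrument. The authors deposited RPKM, 1 value per gene symbol with 2 decimals, per the file headers. The build was mm9, per the submitters' processing notes; the aligner, counter and annotation are not stated there.

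Values were used as deposited. Genes with at least 1 RPKM in 1 of the 4 populations were kept, log2 ratios used a pseudocount of 1 RPKM, and a 2-fold limit marked genes as higher or lower. Genes whose values step in whole reads gave depths of about 23000000, 25600000, 27400000 and 20700000 reads in the order R2 to R5. Reads per gene were estimated from these and the longest coding transcript in GENCODE M21, so they are approximate. Intervals are exact (Poisson, or Clopper-Pearson for ratios; scipy 1.17.1). Named were all members and family genes, list genes reaching 10 RPKM and the 5 nearest patterns. A few genes that this rule names are not reported here, though counts over their lists include them. Alternatives were pseudocounts of 0.1 and 5 RPKM, no filter or 5 RPKM, median scaling over 2745 genes, and removal of the 8 globin genes. R5 against R3 was added after seeing the data. Ratios and calls were tested on simulated data, where changed genes had at least 10 RPKM in the reference population and all others stayed unchanged. That test does not cover changes in genes as low as Car3 and Car13, or the shift that globins bring.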

Additional observations from a re-analysis of the deposited data

How the results depend on the processing

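No paired analysis was possible because each population has 1 library. Of 150 values recomputed under the alternatives, 17 log2 ratios between populations moved outside their counting intervals and 74 stayed within them. Under median scaling 8 moved and 8 stayed, and with globins removed 7 moved and 9 stayed. The filter settings cannot change the ratio of a single gene. Another 14 values, which were counts or ratios of Car1 to Car2, also moved. Only log2 ratios past the 2-fold limit as deposited were checked for a change of sign. Of these, 1 changed: with R3 in place of R2 as the reference, the log2 ratio of Car2 was -0.70, within 2-fold. That was a different comparison chosen after seeing the data, and the count at least 2-fold higher went from 1 to 0. Under median scaling, smaller ratios also changed sign. These were Car2 and Car1 in R4 against R3, and Car1 and Car3 in R5 against R2. The count higher in R3 against R2 went from 1 to 2 with a pseudocount of 0.1 RPKM (4.82% of all genes) and with globins removed (7.81%), Car3 being the added gene. The count lower in R4 against R3 went from 0 to 3 with a pseudocount of 0.1, where 59.1% of all genes were lower. Car3 is in both of these counts, and the filter kept it only through R3. The count lower in R5 against R2 went from 1 to 2 with a pseudocount of 0.1 (84% of all genes), and to 0 with a pseudocount of 5 (47.8%), a filter of 5 RPKM (82.9%), median scaling (13.7%) or globins removed (29.8%). The log2 ratio of Car1 to Car2 within a library, on RPKM + 1, was -5.11, -6.93, -7.62 and -7.23 in the order R2 to R5. With a pseudocount of 5 it was -4.66, -6.50, -6.90 and -6.47, and with 0.1 it was -7.85 in R4. Car3 and Car13 are not in the results with a filter of 5 RPKM. Depth limits Car4, Car5b, Car8 and Car12, which rest on about 28 reads or fewer.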
